A study of Homo sapiens and Homo sapiens
Mus with 12 samples.

Results

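Human protein-coding genes were compared between xenograft tumors grown from UM-UC-3 cells carrying the CDH11 shRNA sh#1 and tumors grown from UM-UC-3 cells carrying the control shRNA shCtrl. UM-UC-3 is a cell line derived from an advanced human bladder cancer. Of 26813 human genes listed in the tumor table, 14947 were annotated as protein-coding, and 8625 of these had enough counts to be tested. The cells of both groups were infected with lentiviral pGIPZ vectors and sorted as GFP-positive pools, so each group was 1 pool of cells, and they were injected subcutaneously into male BALB/cAJcl-nu/nu nude mice at 5 weeks of age. Tumors were taken 4 weeks later, 5 per group, and 5 tumors of a second shRNA, sh#2, entered the model beside these groups. The whole series holds 24 libraries, the other 9 being cultured cells of the same 3 groups. Nude mice lack mature T cells but keep macrophages, neutrophils and other host cells, and the mouse counts of each tumor were listed in a separate table. The libraries of each tumor group were prepared as 1 barcoded mix, mix 1 for shCtrl and mix 2 for sh#1, so an effect of the mix and an effect of the shRNA cannot be told apart in any comparison below.

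CDH11, or cadherin-11, is a type II classical cadherin that joins neighboring cells through its extracellular domain and is anchored to the actin cytoskeleton through catenins. It is normally made by osteoblasts and other mesenchymal cells, and carcinoma cells can take it up together with other mesenchymal genes. In a xenograft, tumor cells are human and blood vessels, fibroblasts and leukocytes are mouse, and the shRNA is carried by the cancer cells. Human and mouse counts were deposited as separate tables, but how the reads were divided is not given in the sources used here, and some genes of host tissue had counts in the human table (values below).

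The shCtrl tumors had 635024 to 1248977 human counts and the sh#1 tumors 414849 to 1011977, with 11890 to 12336 and 11027 to 12132 human protein-coding genes detected. One library stood apart. In sh#1 tumor 1, the library with 414849 human counts, 30.0% of human plus mouse counts were mouse and 10.5% of human counts were mitochondrial ribosomal RNA. In the other 9 tumors these shares lay between 10.4% and 18.7%, and between 3.35% and 5.01%. A single mouse row, CT010467.1, held much of the mouse counts. Without it the mouse share was 25.1% in sh#1 tumor 1 and 6.58% to 9.87% in the other 9 tumors, and sh#1 tumor 2 went from 18.7% to 7.002%. The mouse share averaged 12.2% ± 1.62 (SD, n = 5) in shCtrl and 16.2% ± 8.46 in sh#1 tumors (exact permutation test, two-sided, p = 0.405). The smallest p that 5 against 5 can give is 0.00794. The 6 mouse adipocyte markers made up 13557 CPM of mouse counts (CPM, counts scaled to a common library total) in sh#1 tumor 1, against 34.9 to 1169 in the shCtrl tumors. The mouse skeletal muscle markers, of which Tnnc2 was at 0, made up 6360 CPM in that tumor against 69.7 to 1640 in shCtrl. The labelled cell line was checked on human markers. VIM, a mesenchymal filament gene, had 32233 counts over the 10 tumors and KRT18, an epithelial keratin, 2701, while EPCAM and the urothelial genes UPK1B, UPK3A and KRT20 were at 0. The urothelial markers GATA3, PPARG and FOXA1 had a few counts in each of the 10 tumors, PPARG the most with 42 in all. The 8 urothelial markers together made up 5.60 to 15.7 CPM in shCtrl and 12.3 to 26.5 CPM in sh#1 tumors (6 to 10 and 11 to 18 counts). The summed human leukocyte markers had 0 to 3 counts per shCtrl tumor and 0 to 2 per sh#1 tumor, and C1QA, C1QB and C1QC were at 0. Other marker sets of host cells did have human counts. The 8 human fibroblast markers made up 30.1 to 83.5 CPM in shCtrl and 16.9 to 80.6 CPM in sh#1 tumors, and the human skeletal muscle markers, with MYL1 at 0, made up 0 to 6.41 CPM in shCtrl and 0 to 60.3 CPM in sh#1 tumors, the highest (25 counts) in sh#1 tumor 1. Human COL1A1, a fibrillar collagen gene, had 84, 67, 23, 24 and 29 counts in shCtrl and 5, 19, 49, 34 and 39 in sh#1 tumors. Mouse Col1a1 had 1109, 1181, 479, 357 and 463 counts in shCtrl and 70, 274, 613, 369 and 433 in sh#1 tumors, so both were lowest in sh#1 tumor 1 and highest in shCtrl tumors 1 and 2. COL1A1 had the most counts of the human fibroblast markers, and not every other marker followed its mouse gene. Human DCN had 1, 0, 1, 0 and 0 counts in shCtrl and 1, 0, 11, 7 and 6 in sh#1 tumors. Mouse Dcn had 114, 94, 48, 49 and 49 in shCtrl and 36, 37, 63, 21 and 47 in sh#1 tumors. Human LUM had 1, 0, 0, 0 and 0 counts in shCtrl and 1, 0, 11, 3 and 4 in sh#1 tumors. Over the 10 tumors the human counts of COL1A1 came to 6.97% of the mouse counts and those of ACTA1, a skeletal muscle actin, to 2.99%. Cultured shCtrl and sh#1 libraries had 0 to 3 counts of COL1A1 and 0 of ACTA1. The part of host reads in the human counts of other genes was not tested.

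**Figure D1:**
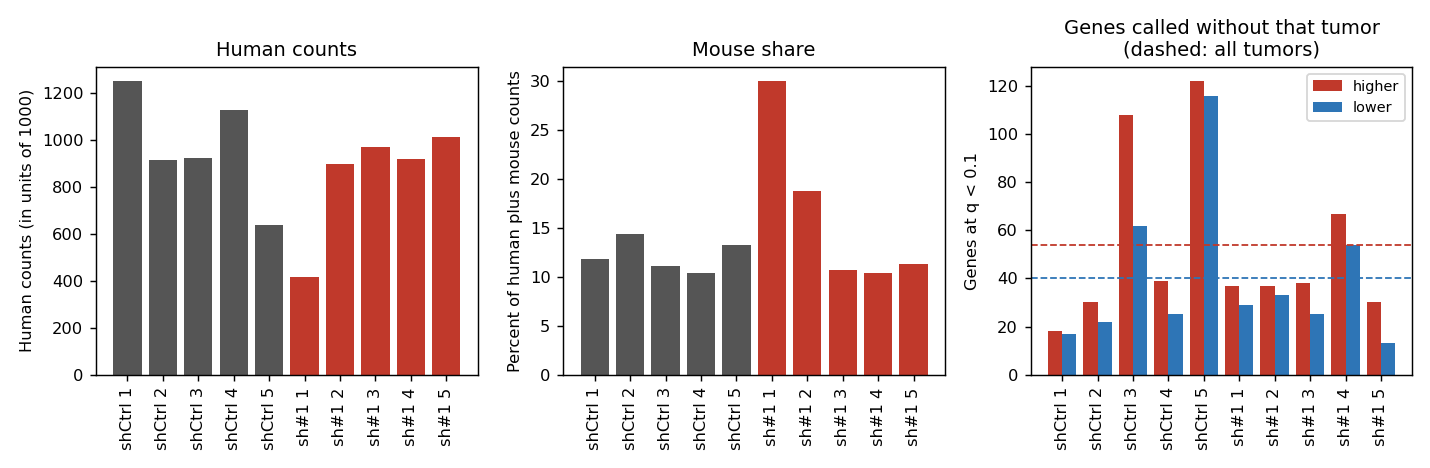
Human counts (left, in units of 1000), the mouse share of human plus mouse counts in percent (middle) and the number of protein-coding genes at q < 0.1 when that tumor was left out (right), for the 5 shCtrl and 5 sh#1 tumors. In sh#1 tumor 1, the human total was lowest (414849) and the mouse share highest (30.0%), while the counts of called genes ranged from 18 to 122 higher and from 13 to 116 lower against 54 and 40 with all tumors (dashed lines).

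CDH11, the target of the shRNA (ENSG00000140937, chr16:64943753-65126112, minus strand, hg38), was lower in sh#1 tumors. Its normalized level was 16.9, 13.0, 17.1, 28.5 and 7.66 CPM in shCtrl tumors 1 to 5. In sh#1 tumors 1 to 5 it was 2.77, 3.39, 9.55, 2.17 and 7.07 CPM. The groups overlapped, since the lowest shCtrl tumor lay under the highest sh#1 tumor. The means were 16.6 ± 7.65 and 4.99 ± 3.18 CPM (SD, n = 5), a log2 fold change of -1.67 (SE 0.40, adjusted p = 0.026, edgeR's quasi-likelihood test). In these bulk libraries, fewer cells with CDH11 RNA and less CDH11 RNA per cell cannot be told apart. Without shCtrl tumor 4, the tumor with the highest level, the log2 fold change was -1.38 and the adjusted p 0.156, and the call was lost. In sh#2 tumors CDH11 lay between 3.82 and 18.8 CPM, and the difference of sh#1 from sh#2 was -0.94 (SE 0.45, adjusted p = 0.482). In counts, human CDH11 was at 21, 12, 15, 32 and 5 in shCtrl tumors 1 to 5 and at 1, 3, 9, 2 and 7 in sh#1 tumors 1 to 5. Mouse Cdh11 was at 30, 23, 12, 27 and 9 counts in shCtrl and at 1, 5, 28, 2 and 10 in sh#1 tumors. The sh#1 tumors stood in the same order in both tables, and the summed counts were lower in sh#1 in both, 85 against 22 in the human and 101 against 46 in the mouse table. The human counts came to 72.8% of the mouse counts over the 10 tumors. Whether mouse reads make up part of the human CDH11 counts was not tested, so the lower CDH11 level is that of the human table and not shown to be that of the cancer cells. In cultured UM-UC-3 cells CDH11 had only 2, 4 and 4 counts in the 3 shCtrl libraries and 0, 0 and 1 in the 3 sh#1 libraries. With 2273182 to 2777019 counts a library, this was too few for a test. For cultured UM-UC-3 cells the paper reports a significant reduction of CDH11 mRNA and protein with the knockdown, measured by RT-qPCR and western blot.

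Across the tumors, 54 protein-coding genes were higher in sh#1 at q < 0.1, which is 0.626% of the 8625 tested, and 40 were lower, which is 0.464%. q is the Benjamini-Hochberg adjusted p over all 9184 human genes tested. At an unadjusted p under 0.05 there were 931 of the 8625 protein-coding genes. The median log2 fold change was 0.83 among the genes called higher and -0.62 among those called lower, and it was 0.00 over all protein-coding genes tested. Of the called genes, 15 rose and 9 fell by 2-fold or more. All 5 sh#1 tumors lay above all 5 shCtrl tumors for 103 of the tested genes, 1.19%, and below them for 79, 0.916%. This held for 30 of the 54 genes called higher and for 21 of the 40 called lower. These counts depended on single tumors. Without shCtrl tumor 1 they were 18 higher and 17 lower, without shCtrl tumor 5 they were 122 and 116, without shCtrl tumor 3 they were 108 and 62, and without sh#1 tumor 5 they were 30 and 13. Without sh#1 tumor 1, the library that stood apart, 37 genes were higher and 29 lower, of which 31 and 26 were among those called with all tumors. In every one of the 10 fits that left out 1 tumor, 12 of the 54 and 10 of the 40 genes were called, and no called gene changed its direction.

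**Figure D2:**
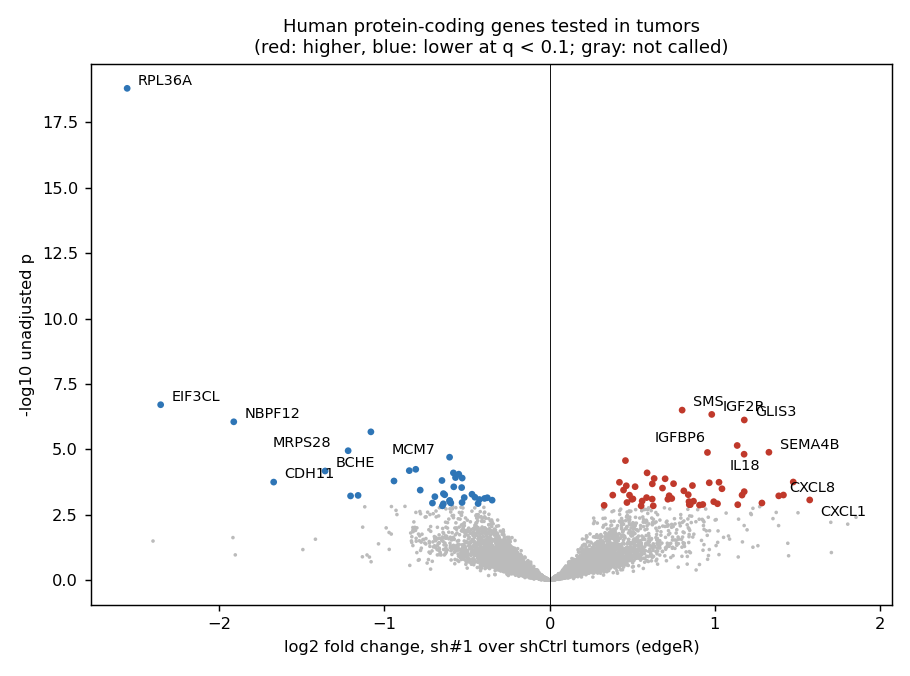
Each point is 1 of the 8625 human protein-coding genes tested, with the log2 fold change of sh#1 over shCtrl tumors on the x axis and -log10 of the unadjusted p on the y axis. The 54 genes higher at q < 0.1 are red and the 40 lower are blue; RPL36A (log2 fold change -2.56) lies far above the rest, and SMS, IGF2R and GLIS3 have the lowest p among the genes that rose.

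Among the genes that rose, 3 act in growth factor and cytokine signaling and were called in all 10 fits that left out 1 tumor. IGFBP6 (chr12:53097436-53102345, plus strand), a secreted protein that binds insulin-like growth factor II with high preference, was at 35.3, 19.5, 38.8, 46.2 and 52.1 CPM in shCtrl tumors. It was at 150, 81.4, 60.5, 76.1 and 74.8 CPM in sh#1 tumors. All sh#1 tumors lay above all shCtrl tumors, with the highest value in sh#1 tumor 1, and the log2 fold change was 1.13 (SE 0.21, q = 0.00171). IGF2R (chr6:159969082-160113507, plus strand), the receptor that carries insulin-like growth factor II to lysosomes for breakdown, was at 99.5, 77.9, 94.6, 70.3 and 104 CPM in shCtrl and at 136, 252, 195, 123 and 161 CPM in sh#1 tumors. The groups did not overlap, and the log2 fold change was 0.98 (SE 0.16, q = 0.000137). IL18 (chr11:112143253-112164096, minus strand), an inflammatory cytokine of the interleukin-1 family, was at 41.7, 46.5, 29.6, 64.0 and 82.7 CPM in shCtrl and at 114, 89.3, 105, 112 and 165 CPM in sh#1 tumors. Here too the groups did not overlap, with a log2 fold change of 1.18 (SE 0.21, q = 0.00335).

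SMS and OAZ2, both named genes, act in polyamine metabolism, and SMS was higher and OAZ2 lower in sh#1 tumors. SMS (chrX:21940709-21994837, plus strand), the synthase that makes spermine from spermidine, was at 285, 280, 268, 214 and 259 CPM in shCtrl and at 638, 339, 442, 440 and 442 CPM in sh#1 tumors. Its log2 fold change was 0.80 (SE 0.13, q = 9.99e-05), and it was called in all 10 fits that left out 1 tumor. OAZ2, an antizyme that marks ornithine decarboxylase, the first enzyme of polyamine synthesis, for degradation, was at 120, 141, 131, 135 and 130 CPM in shCtrl and at 88.8, 103, 99.7, 90.3 and 96.0 CPM in sh#1 tumors. It was lower in sh#1 (log2 fold change -0.45, SE 0.12, q = 0.0661), without overlap between the groups. Its call held in only 4 of the 10 fits that left out 1 tumor. The names of these genes came from the rule for the largest changes, and no list of polyamine genes was fixed.

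Regulators of transcription were among the further genes with the largest rises. GLIS3, a zinc finger transcription factor, averaged 28.5 ± 5.74 CPM in shCtrl and 65.0 ± 14 CPM in sh#1 tumors (SD, n = 5; log2 fold change 1.18, SE 0.20, q = 0.000209). KLF7, a Krüppel-like factor, averaged 17.1 ± 1.93 and 37.9 ± 17.9 CPM (1.02, SE 0.25, q = 0.026), the highest values being 66.6 and 44.1 CPM in sh#1 tumors 1 and 2. NR2F2, an orphan nuclear receptor, averaged 52.7 ± 10.3 and 95.3 ± 32.8 CPM (0.81, SE 0.20, q = 0.0451). In each of these 3 genes the groups did not overlap.

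Cell surface and metabolic genes made up the others. SEMA4B, a transmembrane semaphorin, was at 6.49 to 23.9 CPM in shCtrl and 32.6 to 72.1 CPM in sh#1 tumors (log2 fold change 1.33, SE 0.26, q = 0.00294). PPP1R3B, which brings protein phosphatase 1 to glycogen, was at 29.4 to 55.9 and 60.6 to 103 CPM (0.96, SE 0.19, q = 0.00294). STK17A, a kinase of the death-associated family, averaged 94.7 ± 22.7 and 180 ± 72.7 CPM and reached 308 CPM in sh#1 tumor 1. RIOK3, an atypical kinase, averaged 22.5 ± 6.41 and 42.7 ± 13.8 CPM. PPFIBP1, a liprin found at the cell edge, averaged 64.8 ± 11.7 and 111 ± 23.8 CPM, and PDE10A, which breaks down cyclic nucleotides, 23.3 ± 5.25 and 39.8 ± 6.41 CPM. The last 4 had q values of 0.0326, 0.0586, 0.0285 and 0.0704.

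**Figure D3:**
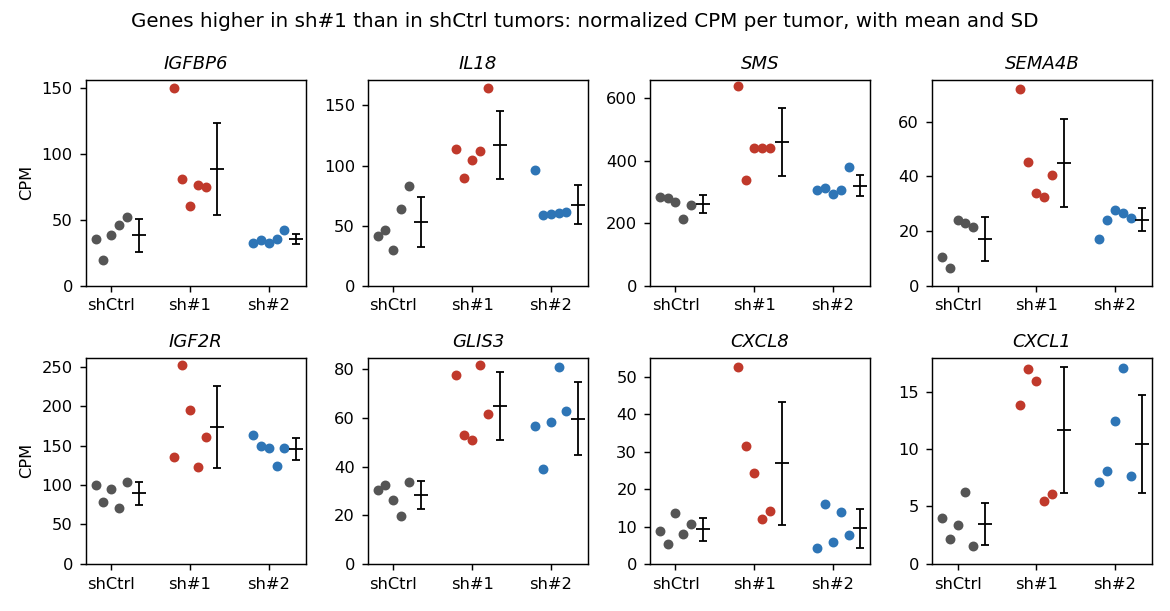
Normalized CPM of 8 genes that were higher in sh#1 than in shCtrl tumors at q < 0.1, with 1 point per tumor (5 per group) and the mean and SD beside each group; sh#2 tumors are shown for reference. IGFBP6, SMS and SEMA4B have higher means in sh#1 than in either other group. GLIS3, IGF2R and CXCL1 sit at similar levels in sh#1 and sh#2. Between sh#1 and shCtrl tumors, the values overlap for CXCL8 and CXCL1 only.

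Among the genes that fell, BCHE (chr3:165772904-165837462, minus strand), a serum esterase that splits choline esters, was at 77.8, 51.9, 57.0, 94.3 and 38.3 CPM in shCtrl and at 5.55, 37.3, 29.7, 26.1 and 19.2 CPM in sh#1 tumors. Its log2 fold change was -1.36 (SE 0.27, q = 0.0131), and mouse Bche had 0 or 1 count in each of the 10 tumors. MRPS28, a protein of the small subunit of the mitochondrial ribosome, was at 39.3, 28.1, 30.8, 24.9 and 26.0 CPM in shCtrl and at 11.1, 7.91, 17.0, 14.1 and 13.1 CPM in sh#1 tumors. Its log2 fold change was -1.22 (SE 0.24, q = 0.00265). The groups did not overlap in either gene, and both were called in every fit that left out 1 tumor. Other genes of the named set fell by less. Among them were ZSWIM7, a partner of recombination factors (-0.78, q = 0.0433), RRP7A, which takes part in ribosomal RNA processing (-0.69, q = 0.0635), AKT1S1, an inhibitory subunit of mTOR complex 1 (-0.60, q = 0.0804), PRKCSH, the regulatory subunit of glucosidase II (-0.57, q = 0.0207), FADS1, a fatty acid desaturase (-0.53, q = 0.0212), and ATAD2, a bromodomain ATPase (-0.47, q = 0.058).

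Of 36 tested genes of cell cycle and DNA replication, 3 fell and none rose at q < 0.1, and 32 had a log2 fold change below 0. CCND1, the D-type cyclin of early G1, was at 871, 1115, 844, 947 and 731 CPM in shCtrl and at 427, 669, 655, 617 and 627 CPM in sh#1 tumors (-0.58, SE 0.13, q = 0.0148). MCM7, a subunit of the replicative helicase, was at 383, 399, 342, 352 and 273 CPM in shCtrl and at 183, 241, 275, 236 and 208 CPM in sh#1 tumors (-0.60, SE 0.12, q = 0.00425). CCNB2, a mitotic B-type cyclin, was at 93.5 to 126 CPM in shCtrl and at 63.8 to 88.0 CPM in sh#1 tumors (-0.58, SE 0.14, q = 0.0349). The groups did not overlap for CCND1 and CCNB2, and for MCM7 1 sh#1 tumor lay just above the lowest shCtrl tumor. NCAPH, a condensin subunit that lies outside this list, fell by 0.60 on the log2 scale (q = 0.0749). The median over the list was -0.28, and it was -0.21 without sh#1 tumor 1, in which the list was lowest. Taken per tumor against the shCtrl mean, as log2 of CPM plus a pseudocount of 1, the list's median was -0.23 to 0.19 in shCtrl and -0.68 to -0.01 in sh#1 tumors, so the groups overlapped. In sh#2 tumors the median fold change of the same genes was 0.11, and 2 of the 36 differed between sh#1 and sh#2 at q < 0.1.

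The promoter of CCNB2 is shown because it carries both motifs known from promoters of late cell cycle genes. Capitals mark CCAAT, the box bound by NF-Y, and TTTGAA, a form of the cell cycle genes homology region. The sequence is RefSeq's on GRCh38.p14, 5′ to 3′ on the plus strand, chr15:59104896-59105142.
CCNB2: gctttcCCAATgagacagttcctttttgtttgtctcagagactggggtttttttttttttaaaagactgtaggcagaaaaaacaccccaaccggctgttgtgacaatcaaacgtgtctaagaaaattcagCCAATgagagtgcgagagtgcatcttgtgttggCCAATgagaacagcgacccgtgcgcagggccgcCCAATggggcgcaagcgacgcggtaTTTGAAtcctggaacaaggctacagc
In windows from 250 bases before to 50 bases after the start of a gene, and on either strand, CCAAT occurred in 23 of 28 members with a window, against 37% of 7111 windows of tested protein-coding genes and 35.7% of all 27305 windows. TTTGAA occurred in 10 of the 28 members, against 9.51% and 15.4%. These motifs were picked after the values had been seen, and a match describes letters and not a bound site. Both are known from cell cycle promoters, so their shares in a cell cycle list describe how the list was made.

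**Figure D4:**
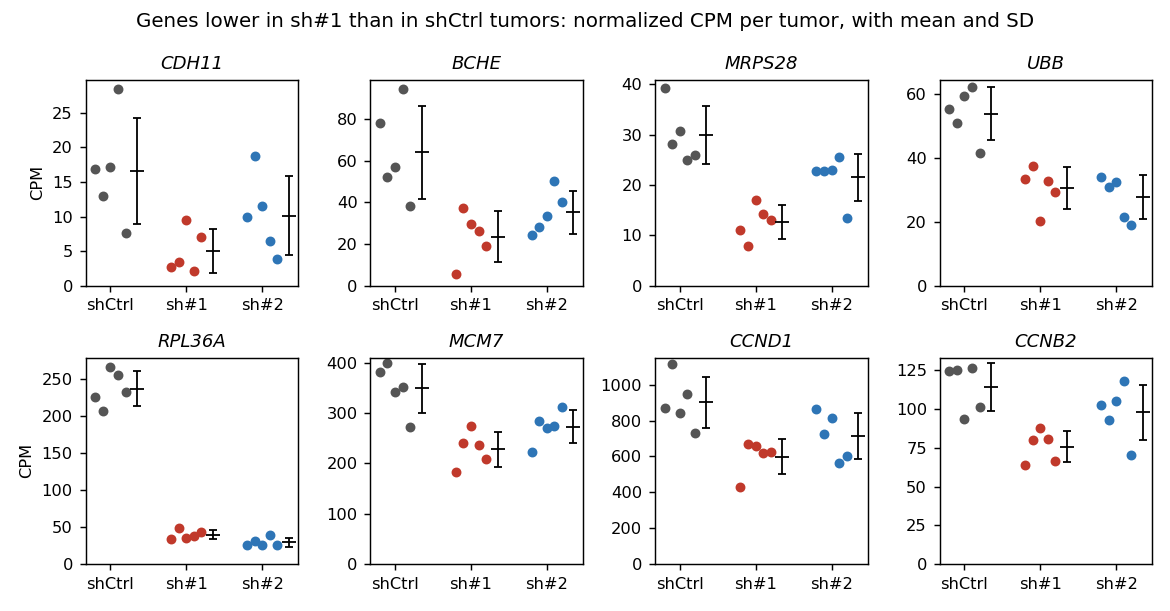
Normalized CPM of 8 genes that were lower in sh#1 than in shCtrl tumors at q < 0.1, with 1 point per tumor (5 per group) and the mean and SD beside each group; sh#2 tumors are shown for reference. CDH11 and MCM7 overlap between shCtrl and sh#1, the other 6 do not, and RPL36A averages 39.5 CPM in sh#1 and 29.1 CPM in sh#2 tumors against 206 to 266 CPM in the single shCtrl tumors.

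Several genes with the largest falls have near-identical copies, so reads may be divided among rows by the counting. RPL36A (chrX:101390824-101396155, plus strand), a protein of the large cytosolic ribosomal subunit, was at 225, 206, 266, 254 and 231 CPM in shCtrl and at 33.3, 48.6, 35, 37.0 and 43.4 CPM in sh#1 tumors. This 5.99-fold lower mean had the lowest q of all genes (log2 fold change -2.56, SE 0.14, q = 3.91e-16). Summed with the 9 rows named as its pseudogenes, RPL36A was at 248 ± 25.6 CPM in shCtrl and 52.9 ± 8.45 CPM in sh#1 tumors (SD, n = 5; exact permutation test, two-sided, p = 0.00794, adjusted over 5 such sums 0.0132). RPL36A alone averaged 236 CPM in shCtrl and 39.5 CPM in sh#1 tumors. As it had been called in this comparison and makes up most of the sum, this p-value is no separate evidence of the fall. RPL36AL, the related gene on chromosome 14 that was looked up after these values were seen, averaged 478 and 521 CPM. In sh#2 tumors RPL36A was at 24.8 to 38.4 CPM. In cultured cells its values were not lower, with 5926 to 6222 counts in shCtrl and 6689 to 8203 in sh#1 libraries (log2 fold change 0.27).

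EIF3C and EIF3CL encode the same subunit of translation initiation factor 3. EIF3C averaged 20.8 ± 7.26 CPM in shCtrl and 10 ± 3.97 CPM in sh#1 tumors (-1.20, SE 0.32, q = 0.060), and EIF3CL averaged 27.0 and 5.08 CPM (-2.35, q = 6.68e-05). Their sum was 47.8 ± 16.2 against 15.1 ± 4.45 CPM (exact p = 0.00794, adjusted 0.0132). In cultured cells the reads were divided unevenly, with 899 to 1293 counts for EIF3CL in the 6 shCtrl and sh#1 libraries and 0 counts for EIF3C in 4 of them, 6 in one and 105 in another. UBB, a polyubiquitin gene, fell from 53.8 ± 8.18 to 30.5 ± 6.46 CPM (-0.85, SE 0.19, q = 0.013), and its sum with pseudogene rows was 57.1 against 32.7 CPM (exact p = 0.00794). The sums of EIF3C with EIF3CL and of UBB hold rows already called in this comparison. Their p-values are therefore no separate evidence of a fall. Mouse Ubb had 769 and mouse Eif3c 162 counts over the 10 tumors, against 388 and 141 human counts of UBB and EIF3C. Mouse Ubb was at 37 to 107 counts in shCtrl and at 46 to 112 in sh#1 tumors. For NBPF12, a member of a duplicated gene family with a log2 fold change of -1.91, the sum over the 12 NBPF rows was 121 ± 23.6 against 107 ± 4.22 CPM (exact p = 0.27). For EIF5AL1, which rose (0.62, SE 0.15, q = 0.0285), the sum with EIF5A and its pseudogenes was 2053 ± 193 against 1900 ± 141 CPM (exact p = 0.183), so the mean of this sum was not higher in sh#1.

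Genes induced by low oxygen were higher in sh#1 tumors in fold change but rarely in the test. Of 36 tested hypoxia response genes, 35 had a log2 fold change above 0, 2 rose at q < 0.1 and none fell. At an unadjusted p under 0.05 there were 12, all higher, against 931 of all 8625 protein-coding genes tested in either direction. DESeq2 called 4 and the fit without a filter on low counts 7. The median was 0.53. The pair that rose were PPP1R3B, described above, and CA12, a membrane carbonic anhydrase, which was at 33.7, 24.9, 34.2, 51.6 and 38.3 CPM in shCtrl and at 91.6, 78.0, 50.9, 90.3 and 68.7 CPM in sh#1 tumors (1.02, SE 0.27, q = 0.0877). BNIP3, a mitophagy receptor of this list, was at 160, 148, 513, 169 and 224 CPM in shCtrl and at 1052, 508, 279, 316 and 363 CPM in sh#1 tumors (1.02, SE 0.43, q = 0.391). The values of BNIP3 show a single high shCtrl tumor, tumor 3, and a very high sh#1 tumor 1. The same 2 tumors led the list as a whole. Its median per tumor was 0.65 in shCtrl tumor 3 and between -0.27 and 0.00 in the other shCtrl tumors, and it was 1.34 in sh#1 tumor 1 and between 0.20 and 0.65 in the other sh#1 tumors. Without sh#1 tumor 1 the median fold change fell to 0.30 and 1 gene rose, and in a model that also held each tumor's log2 mouse:human ratio the median was 0.29. With CT010467.1 left out of that ratio, an alternative added after the data were seen, it was 0.40 and 4 genes rose. Without shCtrl tumor 3 the median was 0.75 and 7 genes rose. The part of the mouse share in these values was not tested beyond this model. In sh#2 tumors the median of the list was 0.07. Both called genes were nevertheless higher in sh#2 than in shCtrl tumors. CA12 had a log2 fold change of 1.31 there (SE 0.26, q = 0.0114) and PPP1R3B 0.68 (SE 0.19, q = 0.0669).

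All 19 tested genes of glycolysis and lactate transport had a log2 fold change above 0, with a median of 0.28, but none passed edgeR's test. At an unadjusted p under 0.05 there were 3, against 931 of all 8625 protein-coding genes tested, and DESeq2 called 1. ENO2, the enolase with the lowest p, was at 26.5, 22.7, 82.1, 51.6 and 52.1 CPM in shCtrl and at 297, 104, 74.2, 110 and 122 CPM in sh#1 tumors (log2 fold change 1.5, SE 0.40, q = 0.127). GPI, which converts glucose 6-phosphate to fructose 6-phosphate, had a value of 0.36 (q = 0.414). Without sh#1 tumor 1 the median was 0.18 and 18 of 19 were above 0. The sh#2 median of the list was -0.01.

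**Figure D5:**
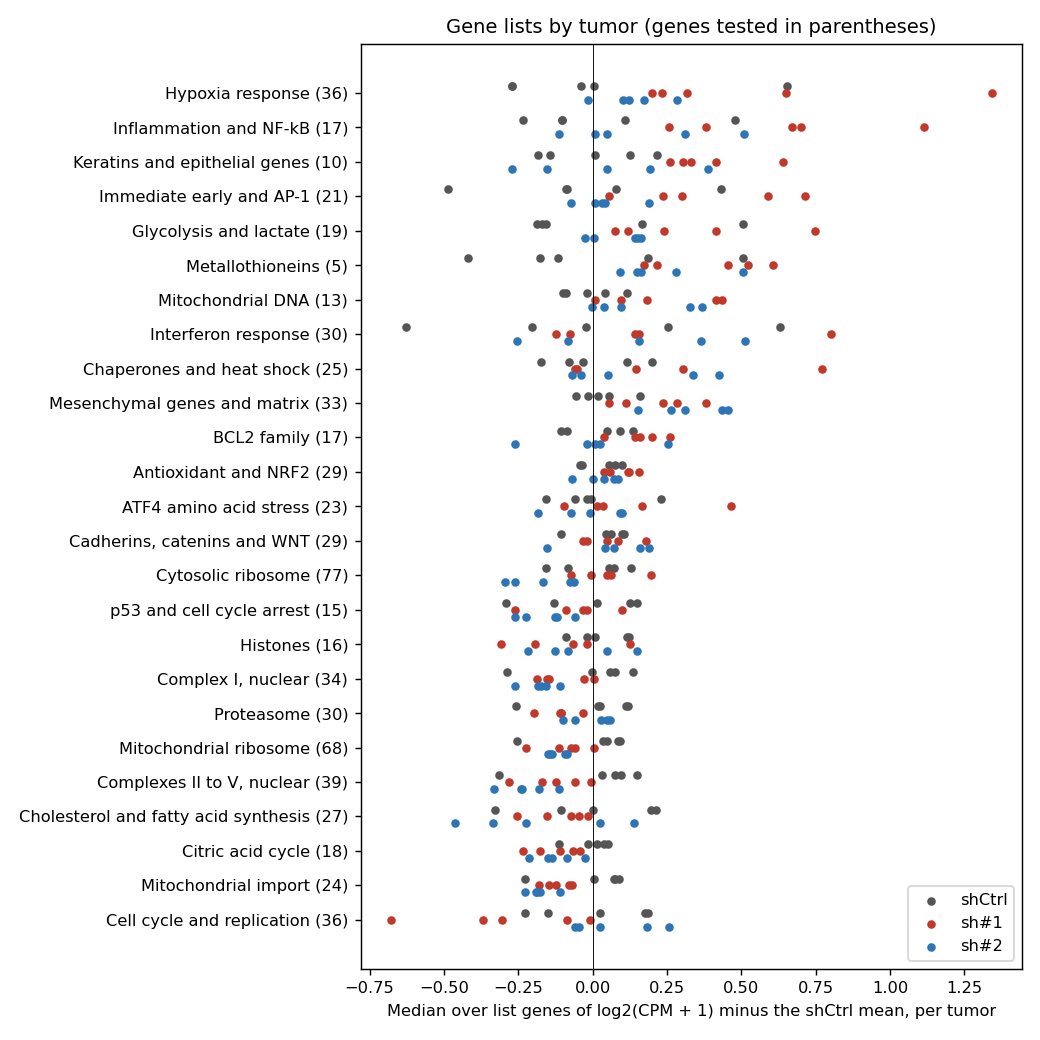
For each gene list (number of genes tested in parentheses), the median over its genes of log2(CPM + 1) minus the shCtrl mean is shown per tumor, 5 tumors in each of shCtrl (gray), sh#1 (red) and sh#2 (blue). Hypoxia and cell cycle genes spread farthest in opposite directions in sh#1 tumors, 1.34 and -0.68 in sh#1 tumor 1, and shCtrl tumor 3 also sits high for hypoxia (0.65).

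Inflammatory genes controlled by NF-kB, a transcription factor activated by cytokines and stress, had 17 of 17 fold changes above 0 and a median of 0.43. CXCL8 and CXCL1, chemokines that attract neutrophils, rose at q < 0.1, and none fell. CXCL8 was at 8.83, 5.41, 13.7, 8 and 10.7 CPM in shCtrl and at 52.7, 31.6, 24.4, 12.0 and 14.1 CPM in sh#1 tumors (1.39, SE 0.36, q = 0.060). CXCL1 was at 4.01, 2.16, 3.42, 6.23 and 1.53 CPM in shCtrl and at 13.9, 16.9, 15.9, 5.44 and 6.06 CPM in sh#1 tumors (1.57, SE 0.43, q = 0.0729). In both genes sh#1 tumors 1 to 3 were highest and tumors 4 and 5 lay within or close to the shCtrl range. Neither was called without sh#1 tumor 1, 2 or 3. Without sh#1 tumor 1 the list median was 0.39, and with the mouse:human ratio in the model it was 0.33 and no gene of the list was called. With CT010467.1 left out of the ratio it was 0.41, and both chemokines were called (q of 0.0626 for CXCL8 and 0.0812 for CXCL1). IL18 was not in this list. Mouse Cxcl1 had 0 to 4 counts per sh#1 tumor and 0 or 1 per shCtrl tumor. The mouse neutrophil markers, with Ly6g and Retnlg at 0 in these tumors, made up 32.6 to 95.9 CPM of mouse counts in shCtrl and 54.2 to 146 CPM in sh#1 tumors.

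The promoter stretches of both chemokines, which lie close together on chromosome 4, are shown because each holds the same NF-kB motif, GGAATTTCC, in capitals. They are RefSeq's on GRCh38.p14, plus strand, at chr4:73740458-73740506 for CXCL8 and chr4:73869295-73869343 for CXCL1, and the motif begins 91 and 78 bases before the start.
CXCL8: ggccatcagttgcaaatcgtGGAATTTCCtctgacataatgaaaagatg
CXCL1: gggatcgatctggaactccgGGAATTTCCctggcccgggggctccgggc
The motif, searched on both strands, occurred in 7 of the 12 tested list members with a window and in 0.408% of the windows of tested protein-coding genes (0.472% of all windows). The list was drawn up from genes known as NF-kB targets, so this share describes how the list was made.

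Immediate early genes, which answer growth signals within minutes, had a median of 0.33 over 21 tested, with 16 above 0. DUSP5, a phosphatase that inactivates ERK in the nucleus, was at 51.4, 103, 93.5, 64.9 and 49.0 CPM in shCtrl and at 158, 127, 95.5, 99.0 and 116 CPM in sh#1 tumors (0.68, SE 0.17, q = 0.0379). IER2 moved the other way, from 193 to 263 CPM in shCtrl to 127 to 205 CPM in sh#1 tumors (-0.55, SE 0.12, q = 0.0159). Of 5 tested metallothioneins, small proteins that bind zinc and copper, MT1X rose (41.7 to 87.8 CPM in shCtrl, 88.9 to 201 CPM in sh#1; 0.91, SE 0.24, q = 0.0944), and the list median was 0.28. Its promoter stretch, RefSeq's on GRCh38.p14 at chr16:56682300-56682443, plus strand, is shown with the cores of the metal response element, TGCGCNC and TGCACNC, in capitals, GGGTGCA being a match on the minus strand.
MT1X: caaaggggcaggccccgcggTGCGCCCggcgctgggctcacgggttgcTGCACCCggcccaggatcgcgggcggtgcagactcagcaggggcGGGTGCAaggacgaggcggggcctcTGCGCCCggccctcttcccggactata
TGCGCNC occurred in 33.1% and TGCACNC in 10.6% of the windows of tested protein-coding genes, on either strand. Among the 5 tested metallothioneins they occurred in 2 and 3. The promoter of CA12 was searched for ACGTG, the core of the hypoxia response element. It held no match and is not shown. ACGTG occurred in 16 of 30 tested hypoxia response genes with a window, against 28.4% of the windows of tested protein-coding genes. This list too was drawn up from known response genes, so the share describes how it was made.

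Mitochondrial genes were of interest because the respiratory chain depends on genes of both the nuclear and the mitochondrial genome. The listed genes of the protein import machinery and the citric acid cycle are nuclear. NDUFC2, a complex I subunit, had a mean of 76.6 ± 15.2 CPM in shCtrl and 67.8 ± 13.8 CPM in sh#1 tumors (log2 fold change -0.15, SE 0.16, q = 0.776). TIMM21, a subunit of the inner membrane import complex, averaged 26.3 ± 6.29 and 21.8 ± 7.78 CPM (-0.22, SE 0.23, q = 0.768). Neither was called in the tumors. The nuclear lists lay a little below 0. Of 34 tested complex I genes 25 were below 0 (median -0.10) and only NDUFB7 was called, and it rose, from 84.4 to 146 CPM in shCtrl to 142 to 178 CPM in sh#1 tumors (0.59, SE 0.13, q = 0.0148). Of 39 genes of complexes II to V 31 were below 0 (median -0.12), and 2 fell, both of complex III. CYC1, cytochrome c1, went from 581 ± 102 to 401 ± 82.7 CPM (-0.53, SE 0.13, q = 0.0368), and UQCRH, the hinge protein, from 740 ± 94.7 to 562 ± 46.9 CPM (-0.39, SE 0.11, q = 0.0689).

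Of 24 import genes 22 were below 0 with a median of -0.15. Of 18 citric acid cycle genes 15 were below 0 with a median of -0.13. None of either list was called by edgeR or DESeq2. At an unadjusted p under 0.05 there were 3 and 2 genes, all lower. Over all 8625 protein-coding genes tested, 931 were under 0.05 in either direction. TIMM10, a chaperone of the intermembrane space, had a value of -0.41 (q = 0.236), and FH, fumarate hydratase, -0.44 (q = 0.194), the latter without overlap between the groups. Of 68 mitochondrial ribosome genes 51 were below 0 (median -0.11), and MRPS28 alone was called. The 13 protein-coding genes of mitochondrial DNA went the other way, with 11 above 0 and a median of 0.24. MT-ND4 was at 8635, 10461, 10029, 7728 and 8991 CPM in shCtrl and at 12267, 10858, 13146, 10183 and 11181 CPM in sh#1 tumors (0.33, SE 0.10, q = 0.0958), close to the threshold, and it was not called in any of the 10 other fits on all the tumors or on the 10 compared. These 13 genes made up 6.70% ± 0.461 of human counts in shCtrl and 7.33% ± 0.911 in sh#1 tumors (SD, n = 5; exact permutation test, two-sided, p = 0.214).

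The other lists gave few calls. WNT7B, a Wnt ligand and one of 29 tested genes of cadherins, catenins and WNT signaling, was at 35.2 to 61.4 CPM in shCtrl and at 29.4 to 41.8 CPM in sh#1 tumors (-0.52, SE 0.19, q = 0.229). In that list CDH11 alone was called, and the median was 0.06. Of 77 cytosolic ribosome genes, 2 were called, among them RPL36A, which fell, and the median was 0.03. Of 30 proteasome genes, PSMC3, an ATPase of the regulatory particle, fell from 92.4 ± 16.1 to 59.9 ± 8.80 CPM (-0.65, SE 0.15, q = 0.0241), and 25 were below 0 (median -0.11). In cholesterol and fatty acid synthesis FADS1 fell among 27 (median -0.13), and 16 histone genes had a median of -0.09. edgeR called no gene among 25 chaperones (median 0.15), 23 genes of amino acid stress (0.06), 15 p53 targets and arrest genes (-0.04), 30 interferon response genes (0.19), 33 mesenchymal and matrix genes (0.13), 10 keratins and epithelial genes (0.33), 29 antioxidant genes (0.07), 17 BCL2 family genes (0.10) and the single bladder subtype marker tested, CD44 (0.28). At an unadjusted p under 0.05 these lists held, in the same order, 5, 2, 1, 1, 4, 4, 6, 4 and 1 genes. Over all 8625 protein-coding genes tested the number was 931. DESeq2 called 1 each among the chaperones, the keratins and epithelial genes and the antioxidant genes. Taken per tumor against the shCtrl mean, the keratin and epithelial list had medians of -0.19 to 0.22 in shCtrl and 0.26 to 0.64 in sh#1 tumors. No other list had all 5 sh#1 tumors above all 5 shCtrl tumors. In sh#2 tumors the keratin and epithelial list was at -0.27 to 0.39. HSPA1A, the inducible heat shock protein 70, had a value of 1.37 (SE 0.36, q = 0.125), with 70.6 to 170 CPM in shCtrl and 153 to 425 CPM in sh#1 tumors. FTL, the ferritin light chain, had a value of 0.57 (q = 0.173), PHGDH, the first enzyme of serine synthesis, 0.47 (q = 0.403), LAMB3, a laminin chain, 1.70 (SE 0.52, q = 0.192), S100A2, a calcium-binding protein of basal epithelia, 1.07 (q = 0.129), and BBC3, which encodes the death effector PUMA, -0.70 (q = 0.326).

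Set against the same shCtrl tumors, sh#2 tumors had 107 protein-coding genes higher at q < 0.1, 1.24% of those tested, and 85 lower, 0.986%. As both comparisons share the shCtrl tumors and are not independent, sh#1 was also tested directly against sh#2. Here 38 genes were higher in sh#1, 0.441%, and 41 were lower, 0.475%. Of the genes called against shCtrl, 7 of the 54 that rose and 3 of the 40 that fell also differed between sh#1 and sh#2. IGFBP6 was at 32.6 to 42.0 CPM in sh#2 tumors, below the sh#1 range of 60.5 to 150 CPM (difference 1.25, SE 0.22, q = 0.00138). SMS was at 295 to 380 CPM (0.51, SE 0.13, q = 0.0561), IL18 at 59.1 to 96.7 CPM (0.81, SE 0.21, q = 0.0933) and EIF5AL1 at 61.1 to 101 CPM (0.56, SE 0.15, q = 0.0915). OAZ2, at 120 to 157 CPM in sh#2 tumors, was lower in sh#1 (-0.51, SE 0.12, q = 0.0461). EIF3C was at 0 to 2.69 CPM in sh#2 tumors and differed by 2.72 (SE 0.57, q = 0.00815), but with EIF3CL added the means were 15.1 and 13.3 CPM. Also among them were IRAK1, OCIAD2 and GEM, which lie outside the rule for named genes. For GLIS3, IGF2R and RPL36A, the differences between sh#1 and sh#2 were 0.09 (SE 0.18, q = 0.919), 0.27 (SE 0.15, q = 0.584) and 0.44 (SE 0.18, q = 0.365), which did not pass the test.

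The genes called in tumors were also looked up in cultured cells, where sh#1 and shCtrl had 3 libraries each, 11.8% of 9859 genes tested were higher in sh#1 at q < 0.05 and 10.6% were lower. The 2 tables were counted separately, so their values are set side by side without a test. Of the 54 genes higher in sh#1 tumors, 51 were tested in cells, 23 were higher there and 2 lower. Of the 40 genes lower in sh#1 tumors, 36 were tested in cells, 5 were lower there and 6 higher. Against the background shares, the genes that rose in tumors were often higher in culture, whereas those that fell were about as often higher as lower. PPP1R3B had a log2 fold change of 2.07 in cells and 0.96 in tumors, CXCL8 3.38 and 1.39, STK17A 1.23 and 0.86, NR2F2 1.33 and 0.81, IL18 0.90 and 1.18, and SMS 0.75 and 0.80. IGF2R had -0.18 in cells and 0.98 in tumors. Among the genes that fell in tumors, CCND1 was higher in cells (0.38), while MCM7 (-0.01) and MRPS28 (-0.05) were near 0 there. NDUFC2, TIMM21 and WNT7B, with values of -0.15, -0.22 and -0.52 in tumors, had -0.90, -0.85 and -1.18 in cells, with adjusted p of 1.57e-11, 0.00327 and 1.40e-07. In the hypoxia list 34 of 45 genes were higher in cells and none lower (median 0.85), and in the NF-kB list 12 of 18 were higher and none lower (median 0.89). In the cell cycle list 6 of 39 were higher in cells and 5 lower (median 0.02).

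Calls that held in all 10 fits that left out 1 tumor were, among the genes named above, those of RPL36A, EIF3CL, NBPF12, BCHE, MRPS28, UBB, MCM7, CCND1, NDUFB7, SMS, STK17A, PPP1R3B, IGF2R, IGFBP6, IL18, GLIS3 and SEMA4B. The calls of PRKCSH (q = 0.112), FADS1 (q = 0.103) and IER2 (q = 0.1004) were lost without sh#1 tumor 5 alone, that of KLF7 (q = 0.112) without sh#1 tumor 2, and that of EIF5AL1 (q = 0.155) without sh#1 tumor 3. PSMC3 was lost without shCtrl tumor 1 or sh#1 tumor 5 (q of 0.1001 and 0.146), CCNB2 without shCtrl tumor 1 or 2 or sh#1 tumor 5 (0.102 to 0.150), ZSWIM7 without shCtrl tumor 1 or sh#1 tumor 1 or 2 (0.1005 to 0.131) and RIOK3 without shCtrl tumor 1 or 2 or sh#1 tumor 1 (0.144 to 0.205). DUSP5 was lost without shCtrl tumor 1 or 4 or sh#1 tumor 2 or 5 (0.101 to 0.189), PPFIBP1 without shCtrl tumor 1, 2 or 4 or sh#1 tumor 5 (0.103 to 0.105), ATAD2 without shCtrl tumor 1 or 2 or sh#1 tumor 3 or 5 (0.117 to 0.217), NR2F2 without shCtrl tumor 1, 2 or 4 or sh#1 tumor 3 or 5 (0.117 to 0.150), CXCL1 without shCtrl tumor 1 or 2 or sh#1 tumor 1, 2 or 3 (0.123 to 0.212) and EIF3C without shCtrl tumor 1 or 3 or sh#1 tumor 2, 3 or 5 (0.124 to 0.223). CXCL8 was lost without shCtrl tumor 1, 2 or 4 or sh#1 tumor 1, 2 or 3 (0.123 to 0.181), MT1X without shCtrl tumor 1, 2 or 5 or sh#1 tumor 1, 2 or 3 (0.124 to 0.237), and OAZ2 without shCtrl tumor 2 or 4 or sh#1 tumor 1, 3, 4 or 5 (0.105 to 0.155). RRP7A, NCAPH, AKT1S1, CYC1, PDE10A and MT-ND4 were each lost in 6 of the 10 fits and UQCRH and CA12 in 8, every one of them without sh#1 tumor 5, with q up to 0.315.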

How the data were processed

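Per the labels and the study's methods, tumor libraries were sequenced as 75 bp single reads on a NovaSeq6000, trimmed with Trim Galore and aligned to hg38 with HISAT2. The counting program, its annotation and how human and mouse reads were separated are not given in the sources used here. The authors deposited raw counts per gene, 1 column per tumor. GEO has 1 sample record per tumor group, and the 5 columns of a group were taken as 5 tumors. The labels do not say that each came from its own mouse, so p-values measure the spread between these tumors.

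The counts were analysed in R 4.3.3 with edgeR 4.0.16. All 15 tumors and all human genes that passed filterByExpr entered 1 fit with TMM normalization and 3 groups, and the quasi-likelihood test (robust) was adjusted with the Benjamini-Hochberg method over 9184 genes at q < 0.1, of which 559 were not protein-coding. Cultured cells were fitted the same way at q < 0.05, after rows without values were dropped. CPM are TMM-normalized. Shares and copy sums were compared with the exact permutation test over 252 splits. Counts were also simulated for 9184 genes, of which 200 were changed. There the sh#1 against shCtrl fit recovered 84% of 2-fold and 100% of 4-fold changes, and 6.6% of its calls were false. These rates describe the simulated counts. Whether they hold for the tumor counts, with sh#1 tumor 1 set apart and some called genes at low counts, was not tested.

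Named genes were CDH11, NDUFC2, TIMM21 and WNT7B, the 15 largest rises and 15 largest falls at q < 0.1 with a mean of at least 20 counts and groups that did not overlap, per list up to 4 called members or up to 2 of lowest p, and up to 6 genes that also differed from sh#2. The members, lists and rule were chosen with earlier results of these data known. Results were recomputed with DESeq2 1.42.0, with upper quartile scaling, with no filter on low counts or at least 10 counts in every tumor, the 10 tumors alone, each tumor left out, tumor number as a block, the mouse to human ratio as a covariate (also, added after the data were seen, without the mouse row CT010467.1), protein-coding rows only and pseudogene rows added to their gene. Gene positions are from GENCODE v44 on hg38, and promoter sequences from RefSeq on GRCh38.p14. Promoter windows on chromosome 8, among them that of PPP1R3B, were not used. Counts of single genes cover counting error only where no spread is given. Some genes that this rule names are not reported here.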

Additional observations from a re-analysis of the deposited data

Results flagged for a closer look

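In 162 groups of 5 tumors, 20 held a tumor whose gap to its nearest neighbor was over 0.71 of the group's range, Dixon's limit, where chance gives about 1 in 20. Of these 20, 10 were in sh#1 tumor 1. That tumor had the lowest human total (414849, where its 4 fellow tumors had 895180 to 1011977) and the highest share of mitochondrial ribosomal RNA (10.5%, against 3.35% to 5.01%). Its mouse adipocyte markers were at 13557 CPM of mouse counts (132 to 1122 in the others) and its mouse skeletal muscle markers at 6360 CPM (34.6 to 131). Its human genes stood out at 427 CPM for CCND1 (617 to 669), 314 for PDIA3 (159 to 176), 66.6 for RIOK3 (31.3 to 40.2), 308 for STK17A (133 to 162), 150 for IGFBP6 (60.5 to 81.4) and 297 for ENO2 (74.2 to 122). Whether host tissue or the low depth of that tumor plays a part was not tested.

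In other sh#1 tumors, WNT7B was at 41.8 CPM and MT1X at 201 CPM in tumor 2, and PSMC3 at 44.4 CPM in tumor 5. Among shCtrl tumors, FTH1 was at 22.8 CPM, PPP1R3B at 55.9 CPM and BNIP3 at 513 CPM in tumor 3, and PSMC3 was at 64.3 CPM and CD44 at 164 CPM in tumor 5. The mouse adipocyte markers were at 1169 CPM in shCtrl tumor 1 and the mouse skin keratinocyte markers at 237 CPM in shCtrl tumor 4, of which Krt5 and Dsg3 were at 0.

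The effects of sh#1 and sh#2 against the same shCtrl tumors differed at q < 0.1, by the direct test between both groups, for 6 named genes. The difference, as a log2 value of sh#1 over sh#2, was 2.72 for EIF3C, 1.25 for IGFBP6, 0.81 for IL18, 0.56 for EIF5AL1, 0.51 for SMS and -0.51 for OAZ2. With the counts of its copy EIF3CL added to EIF3C, the means were 15.1 CPM in sh#1 and 13.3 CPM in sh#2 tumors.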

How the results depend on the processing

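No called gene changed direction under any alternative. Without a filter on low counts, 103 genes were higher and 78 lower in sh#1 than in shCtrl tumors, and 79 were higher in sh#1 than in sh#2. With only the 10 tumors compared, 33 were higher and 22 lower. With the mouse:human ratio in the model 30 were higher, or 61 higher and 49 lower with the mouse row CT010467.1 left out of it (added after the data were seen), and with protein-coding rows only 34 were higher and 22 were lower than in sh#2. DESeq2 called 53 rises and 35 falls against shCtrl, of which 33 and 28 were also called by edgeR, and 58 were higher than in sh#2. Leaving out 1 tumor gave 18 to 122 genes higher and 13 to 116 lower than in shCtrl, and 21 to 54 higher and 13 to 56 lower than in sh#2. The cause of these changes was not tested. The labels do not say whether tumors of the same number in different groups belong together. Deviations of same-numbered shCtrl and sh#1 tumors correlated between -0.22 and 0.22 over 3318 genes. Each of these values compares single tumors, so they cannot show whether the numbers pair the tumors. With tumor number as a block, 46 genes were higher and 31 lower, and sh#1 tumors 4 and 5 alone correlated best with the shCtrl tumor of their own number. The mouse share of counts differed by 0.588 to 5.51 percentage points with 1 tumor left out (exact p from 0.206 to 0.841), and the mitochondrial DNA share of human counts by 0.294 to 0.898 (0.0635 to 0.389), neither past 0.05. Fold changes of low-count genes rest on few reads, as for CXCL1 at 1.53 to 16.9 CPM.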
